A study of Mus musculus with 6 samples.

Results

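The GIMAP genes (GTPase of the immunity-associated protein) encode small GTP-binding proteins of lymphocytes. The 8 mouse genes examined were chosen by symbol: Gimap1, Gimap3, Gimap4, Gimap5, Gimap6, Gimap7, Gimap8 and Gimap9. All 8 were found among the 15106 genes of the deposited count table, and all 8 passed the filter on low counts that left 11775 genes for testing. Transcripts were counted in T cells sorted from the skin of mice aged 6 weeks that carry a FOXP3-GFP reporter, a fluorescent tag on the transcription factor that defines regulatory T cells. There were 4 libraries of Tregs (the regulatory cells) and 2 of Teffs (effector T cells), all of the same genotype, tissue and age, with no treatment named. The labels do not say whether libraries came from separate or pooled animals, so p-values reflect the spread among these libraries, which may be technical in part. The comparison asks how the transcriptomes of both populations differ within the skin.

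GIMAP proteins share a guanine-nucleotide-binding domain, and several are anchored to membranes of the endoplasmic reticulum, mitochondria or lysosomes. They are best known for the survival and homeostasis of resting lymphocytes: loss of GIMAP5 or GIMAP1 depletes mature T cells, and GIMAP6 binds a protein of the autophagy machinery. Their genes lie side by side in one cluster, and endothelial cells also transcribe some of them.

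In GRCm38 the cluster spans 123.6 kb of chromosome 6. From low to high coordinate the order is Gimap8 (48647234 to 48660875), Gimap9 (48676129 to 48679114), Gimap4 (48684549 to 48692060) and Gimap6 (48701582 to 48708225). Then follow Gimap7 (48718621 to 48724636), Gimap1 (48739054 to 48743795), Gimap5 (48746197 to 48754210) and Gimap3 (48764464 to 48770851). Gimap6 and Gimap3 lie on the minus strand and the other 6 on the plus strand. The coding bases of the phosphate-binding loop (P-loop, or Walker A motif) are shown for each member, since all members hold this loop. The loop is the part of the domain that holds the phosphates of GTP. Each line gives 42 coding bases from the annotated GRCm38 transcript, 5′ to 3′ on the coding strand, with the codons of the loop in capitals.
Gimap8, copy 1: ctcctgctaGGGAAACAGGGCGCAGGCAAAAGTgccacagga
Gimap8, copy 2: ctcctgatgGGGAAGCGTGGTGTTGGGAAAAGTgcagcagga
Gimap8, copy 3: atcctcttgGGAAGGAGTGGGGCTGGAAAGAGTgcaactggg
Gimap9: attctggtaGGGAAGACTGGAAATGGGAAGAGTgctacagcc
Gimap4: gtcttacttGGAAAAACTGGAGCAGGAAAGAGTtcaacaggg
Gimap6: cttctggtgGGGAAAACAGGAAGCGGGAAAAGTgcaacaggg
Gimap7: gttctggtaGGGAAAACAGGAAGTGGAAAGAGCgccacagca
Gimap1: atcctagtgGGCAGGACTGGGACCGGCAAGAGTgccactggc
Gimap5: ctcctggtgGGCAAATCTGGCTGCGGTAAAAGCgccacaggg
Gimap3: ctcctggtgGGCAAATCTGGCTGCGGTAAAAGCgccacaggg

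Gimap8 holds 3 such loops, on exons 3, 5 and 6 of its 6 exons, and each other member holds 1. The windows of Gimap5 (exon 3, 48752585 to 48752626) and Gimap3 (exon 2, 48765878 to 48765919) are the same in all 42 bases. These paralogs were the closest pair of the family, with 87.8% of aligned coding bases identical, against 52.9% to 65.1% for the other pairs. Their longest shared coding run, shown because a read from inside it cannot be placed on one gene, is 140 bases long and lies at 48765681 to 48765820 in Gimap3 and 48752684 to 48752823 in Gimap5.
Gimap3 and Gimap5: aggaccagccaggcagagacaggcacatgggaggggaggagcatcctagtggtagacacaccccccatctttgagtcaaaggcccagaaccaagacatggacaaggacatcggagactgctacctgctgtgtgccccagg

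Of all stretches of 50 bases in the annotated transcripts, 7.52% of those of Gimap3 were also found in another member, and 4.53% of those of Gimap5. For the other 6 members this share was 0. Counts of Gimap3 and Gimap5 are therefore less certain in this respect, since reads with several alignments were set aside in a separate row of the table. For stretches shared with any other annotated gene, the share was 35.5% for Gimap1, 8.15% for Gimap3 and 6.84% for Gimap5. An antisense gene, Gimap1os, overlaps 36% of the exonic bases of Gimap1, and the sources used here do not give the strand setting of the counting. Gm28053, a transcript model that joins exons of Gimap7, Gimap1 and Gimap5, overlaps 3.48%, 6.44% and 3.69% of their exonic bases. Gimap1os and Gm28053 were not analysed here.

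Libraries held 4902126 to 7468778 counts in genes, and counts were found for 9602 to 12605 genes in Tregs and for 13197 and 11894 genes in Teffs. Foxp3 stood at 103 to 233 CPM (counts scaled to a common library size) in Tregs and at 11.3 and 7.17 CPM in Teffs, so the libraries matched their labels. The 8 T cell markers were found in every library, with a summed level of 4457 to 8984 CPM in Tregs and 8010 to 8871 CPM in Teffs. Treg 3 stood apart: it had the lowest T cell sum, and its 6 fibroblast markers summed to 1994 CPM and its keratinocyte markers to 766 CPM, against 8.30 CPM or less and 4.14 CPM or less in the other Tregs. In Teffs these sums were 176 and 3.88 CPM for fibroblasts and 122 and 21.3 CPM for keratinocytes. Of the 9 endothelial markers 6 were analysed, and 5 of these were at or near 0 in most libraries: Cdh5 was at 7.89 CPM in Treg 3, 2.65 CPM in Teff 1 and 0 elsewhere, Emcn and Egfl7 had counts in Treg 3 alone (2.63 and 13.3 CPM), Esam in Treg 2 alone and Vwf in Teffs alone. The sixth, Pecam1, which T cells also transcribe, was at 16.1 to 58.2 CPM in Tregs and at 82.3 and 121 CPM in Teffs. Myeloid markers summed to 140 to 663 CPM in Tregs, highest in Treg 4, and to 319 and 266 CPM in Teffs. B cell markers summed to 40.9 CPM or less in every library, NK cell markers to 23.97 CPM or less and the mast cell marker Kit to 26.1 CPM or less.

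GIMAP transcripts were present in both populations. Summed over the 8 genes they reached 661, 484, 691 and 1003 CPM in the Treg libraries, listed from 1 to 4 here and throughout, and 1305 and 971 CPM in both Teff libraries. Group means of this sum were 710 ± 216 CPM for Tregs (SD, n = 4) and 1138 ± 236 CPM for Teffs (SD, n = 2), and the groups overlapped, since Treg 4 lay above Teff 2. Without Gimap4 the sums were 618 ± 197 CPM and 829.2 ± 192 CPM. In sorted bulk samples, fewer cells that transcribe a gene and less of its RNA per cell cannot be told apart.

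**Figure D1:**
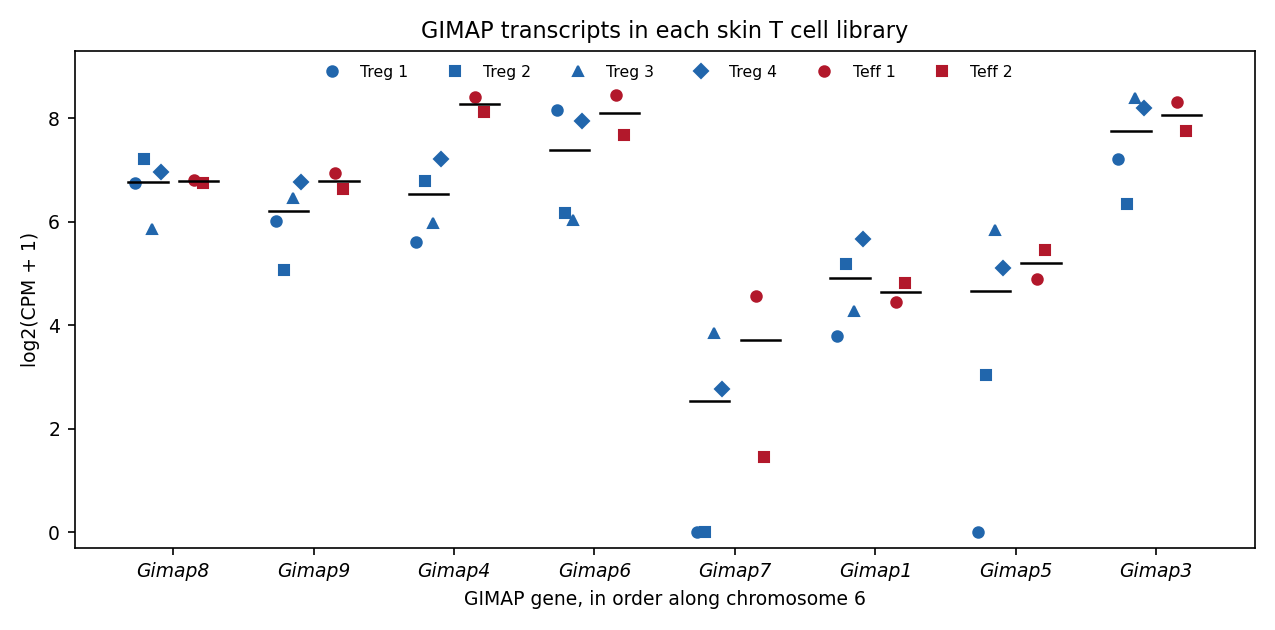
Level of each GIMAP gene as log2(CPM + 1), 1 point per library (4 Treg in blue, 2 Teff in red), with a black line at log2(group mean CPM + 1). Gimap4 is the gene whose 4 Treg points all lie below both Teff points, and Gimap7 and Gimap5 have points at 0.

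No member passed the test across all genes. Of the 8, 0 were called in edgeR's quasi-likelihood test at an adjusted p under 0.05, where 0.0425% of all tested genes were called. DESeq2 called 0 of the 8 as well, against 1.78% of the 10289 genes to which it gave an adjusted p. At an unadjusted p under 0.05, 1 member remained, Gimap4, beside 4.73% of all genes, and without Teff 1 no member did. Log2 fold changes (Treg minus Teff) were negative for 7 members and positive for 1, while 46.6% of tested genes had a negative value. Among the 7, Gimap8 was at -0.004 and changed sign under other settings, and Gimap7 turned positive without Teff 1. The median over the members was -0.58, and over all tested genes it was 0.07.

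Gimap4, which encodes a GTPase linked to the pace of T cell death, had the lowest fold change of the family. Treg libraries held 47.8, 110, 61.5 and 147 CPM of it, and Teff libraries 340 and 278 CPM. All 4 Treg libraries lay below both Teff libraries, a separation that 9.49% of tested genes had in this direction and 15% in either. Means were 91.4 ± 45.4 CPM (SD, n = 4) and 309 ± 43.5 CPM (SD, n = 2), so Teffs were 3.38-fold above Tregs. The log2 fold change was -1.76 ± 0.50 (SE), with a 95% interval from -2.92 to -0.59. Over all genes it missed the threshold, with an adjusted p of 0.709 in edgeR's quasi-likelihood test and 0.117 in DESeq2. In the authors' deposited table the log2 fold change of Gimap4 is -1.82 and its FDR 0.627. Leaving out each library in turn gave -2.08 to -1.54. Without Treg 3, the library with fibroblast and keratinocyte transcripts, the value was -1.60 ± 0.52. Pecam1 was also lower in every Treg library than in both Teff libraries (log2 fold change -1.39 ± 0.67, adjusted p = 1), and the part of endothelial transcripts in the difference of Gimap4 was not tested.

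**Figure D2:**
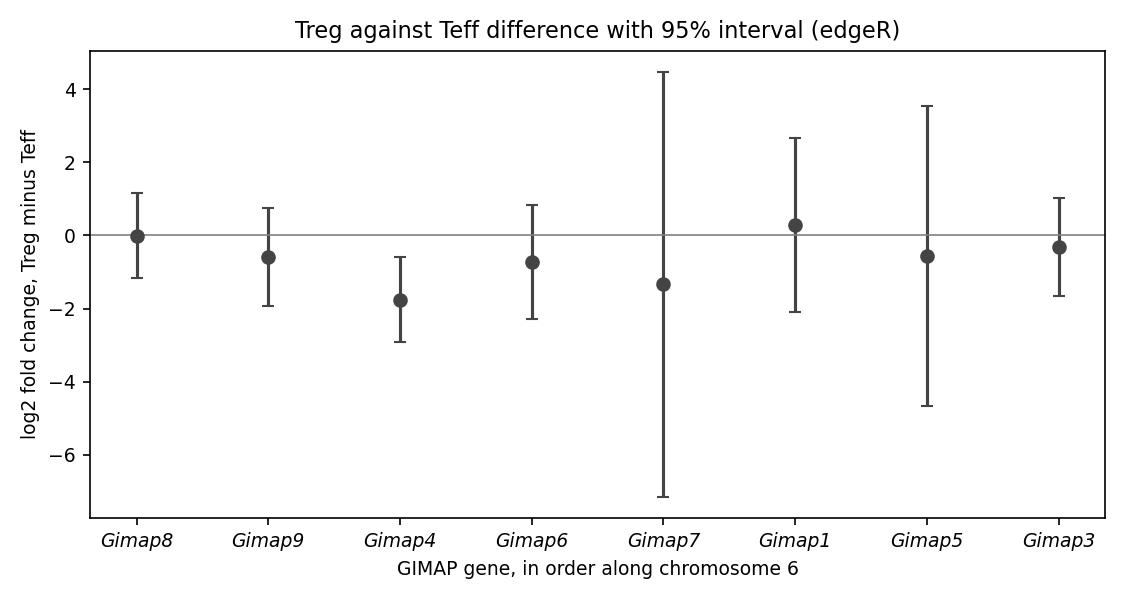
Log2 fold change of each GIMAP gene, Treg minus Teff, with its 95% interval from edgeR, in order along the cluster. The interval of Gimap4 lies below 0 before adjustment over all genes, and the other 7 intervals include 0.

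Levels of Gimap1, Gimap5 and Gimap3 overlapped between the groups. Gimap1, which mature B and T cells need, was at 12.8, 35.5, 18.4 and 49.8 CPM in the Treg libraries and at 20.8 and 27.1 CPM in Teffs. Both Teff values lay inside the Treg range, and the log2 fold change of 0.28 ± 1.03 was the sole positive one, with an interval from -2.10 to 2.67. Gimap5, whose loss depletes T cells in rats and mice, had 0 counts in Treg 1, where a floor of 3 counts corresponds to 0.541 CPM. The other Treg libraries held 7.20, 56.4 and 33.5 CPM of Gimap5, and Teffs 28.6 and 42.8 CPM. The Treg libraries thus held both the lowest and the highest level of Gimap5, and its log2 fold change was -0.56 ± 1.78. Gimap3, the mouse paralog of Gimap5 that has no intact human counterpart, was found in every library. It was at 148, 80.0, 333 and 291 CPM in Tregs and at 315 and 214 CPM in Teffs, with the highest value in Treg 3 and the lowest in Treg 2. The log2 fold change of Gimap3 was -0.31 ± 0.58, with an interval from -1.65 to 1.02.

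The paralogs Gimap3 and Gimap5 did not keep one ratio. On the CPM scale, not divided by length, Gimap3 exceeded Gimap5 by 11.1-fold in Treg 2, 5.90-fold in Treg 3 and 8.69-fold in Treg 4. In the Teff libraries the ratios were 11.0-fold and 5-fold. Gimap5 has the longer merged exons (4149 bases against 2577 for Gimap3), so per kb each ratio is larger. In Treg 1, with 818 counts for Gimap3 and none for Gimap5, the ratio was 273-fold when set against 3 counts, a chosen floor and not a bound. That value rests on 1 library, the one with the fewest genes detected (9602), and the part of detection in it was not tested. These ratios rest on counts from the parts of both genes that reads could tell apart.

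Gimap6, whose product binds the autophagy protein GABARAPL2, split the Treg libraries. It was at 283 and 246 CPM in Treg 1 and Treg 4 and at 70.6 and 64.7 CPM in Treg 2 and Treg 3, a 4.38-fold range, and at 346 and 202 CPM in Teffs. Teff 2 therefore lay between the Treg libraries, and the log2 fold change was -0.72 ± 0.67 (interval -2.27 to 0.83, adjusted p = 1). Gabarapl2 itself was low, at 4.38 to 14.1 CPM in Tregs and 13.0 and 11.0 CPM in Teffs.

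Gimap7, which encodes a GTPase that pairs with other GIMAP proteins to hydrolyse GTP, had the lowest mean CPM of the members in both groups. It was not the lowest in Teff 1, at 22.5 CPM against 20.8 CPM for Gimap1. It had 0 counts in Treg 1 and Treg 2, where 3 counts correspond to 0.541 and 0.480 CPM, 76 and 41 counts in Treg 3 and Treg 4, and 170 and 9 counts in Teff 1 and Teff 2. On the CPM scale this was 0, 0, 13.3 and 5.85 in Tregs and 22.5 and 1.74 in Teffs, a 12.9-fold gap between both Teff libraries. The fold change rested on Teff 1: the log2 value was -1.34 ± 2.52 with all libraries and 1.42 ± 4.69 without Teff 1.

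Gimap8, the member with 3 GTP-binding domains, was the most even between groups. It was at 106, 148, 56.6 and 123 CPM in Tregs and at 110 and 107 CPM in Teffs. Its log2 fold change was 0.00 ± 0.50, with an interval from -1.16 to 1.15, so a difference inside that range in either direction remains possible. This range is not a limit of detection. Gimap9 was at 63.7, 32.6, 87.1 and 107 CPM in Tregs and at 121 and 98.5 CPM in Teffs. Treg 4 lay above Teff 2 while the other Treg libraries lay below both Teffs, and the log2 fold change was -0.60 ± 0.58 (interval -1.93 to 0.74).

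Divided by exon length, the family fell into an upper set of 5 genes and a lower set of 3, a split drawn after the values were seen. Gimap3, Gimap4, Gimap6, Gimap8 and Gimap9 each stood above Gimap1, Gimap5 and Gimap7 in 6 of 6 libraries. The margin was narrowest in Treg 3, where Gimap8 was at 15.3 CPM per kb and Gimap5 at 13.6 CPM per kb. It was widest in Treg 1, where Gimap4, the lowest of the upper set, was at 26.0 CPM per kb and Gimap1 at 4.17 CPM per kb. The lower 3 genes, Gimap7, Gimap1 and Gimap5, are neighbours at positions 5, 6 and 7 of the cluster. They are also the members whose exons are overlapped by Gm28053, and Gimap1 by Gimap1os as well. The part of this overlap in their counted levels was not tested.

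The order within the upper set differed between libraries. In Teffs, Gimap4 led at 168 ± 23.7 CPM per kb (SD, n = 2), followed by Gimap3 at 103 ± 27.8 and Gimap6 at 78.4 ± 29.1 CPM per kb. Gimap9 came next at 66.9 ± 9.82 CPM per kb and Gimap8 at 29.4 ± 0.692 CPM per kb. Gimap4 was first in both Teff libraries and Gimap3 second, and neighbours among Gimap3, Gimap6 and Gimap9 did not differ beyond 1 SD of the higher gene. The gaps between Gimap4 and Gimap3 and between Gimap9 and Gimap8 were wider than either SD. In Tregs, Gimap3 led at 82.6 ± 46.2 CPM per kb (SD, n = 4), ahead of Gimap4 at 49.8 ± 24.7 and Gimap6 at 47.5 ± 32.8 CPM per kb. Gimap9 was at 44.2 ± 19.5 and Gimap8 at 29.3 ± 10.4 CPM per kb. The gap between neighbours in this Treg order was smaller than the SD of the higher gene, and the first place went to Gimap6 in Treg 1, Gimap4 in Treg 2 and Gimap3 in Treg 3 and Treg 4. In the lower set, Gimap1 was at 9.48 ± 5.47, Gimap5 at 5.86 ± 6.23 and Gimap7 at 2.06 ± 2.72 CPM per kb in Tregs. The gap between Gimap1 and Gimap7 there was wider than either SD. In Teffs their levels were 7.80 ± 1.46, 8.61 ± 2.43 and 5.22 ± 6.31 CPM per kb, and each gap was smaller than the SD of Gimap7.

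**Figure D3:**
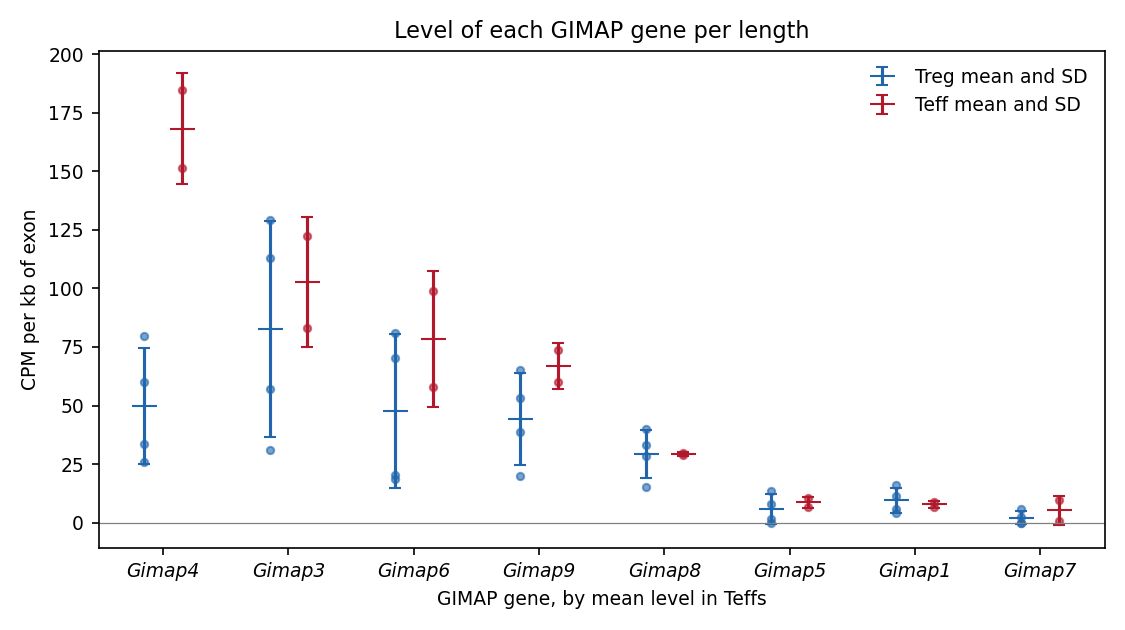
Level of each GIMAP gene in CPM per kb of merged exon, with 1 point per library and the mean ± SD of each group (Treg n = 4, Teff n = 2), ordered by the Teff mean. The 3 genes on the right stay at 16.2 CPM per kb or less in every library.

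The make-up of the family's counts was compared next, since shares within a library do not depend on the scaling of libraries. Gimap4 made up 7.23%, 22.7%, 8.90% and 14.6% of the summed GIMAP counts in the Treg libraries and 26.0% and 28.6% in the Teff libraries. Exact (Clopper-Pearson) 95% intervals were 6.42% to 8.12% for Treg 1 and 25.2% to 26.9% for Teff 1, and cover counting error only. Every Treg share of Gimap4 lay below both Teff shares, the sole member for which the groups did not overlap. These shares rest on the same Gimap4 counts as its CPM values above, so they are not separate support. The difference was -14.0 percentage points (two-sided exact permutation test, p = 0.133; adjusted over the 8 shares, 1), where 4 libraries against 2 cannot go below 0.0667. For the other 7 members the exact permutation p was 0.4 to 1.

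Gimap6 ranged from 9.36% of GIMAP counts in Treg 3 to 42.9% in Treg 1, and Gimap3 from 16.5% in Treg 2 to 48.2% in Treg 3. Gimap8 took 30.6% in Treg 2 and 8.19% in Treg 3. The largest share thus belonged to Gimap6 in Treg 1, Gimap8 in Treg 2 and Gimap3 in the other Tregs, whereas in both Teff libraries Gimap4, Gimap6 and Gimap3 each took between 20.8% and 28.6%. With 2 Teff libraries, how much the shares vary among Teffs is poorly known.

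**Figure D4:**
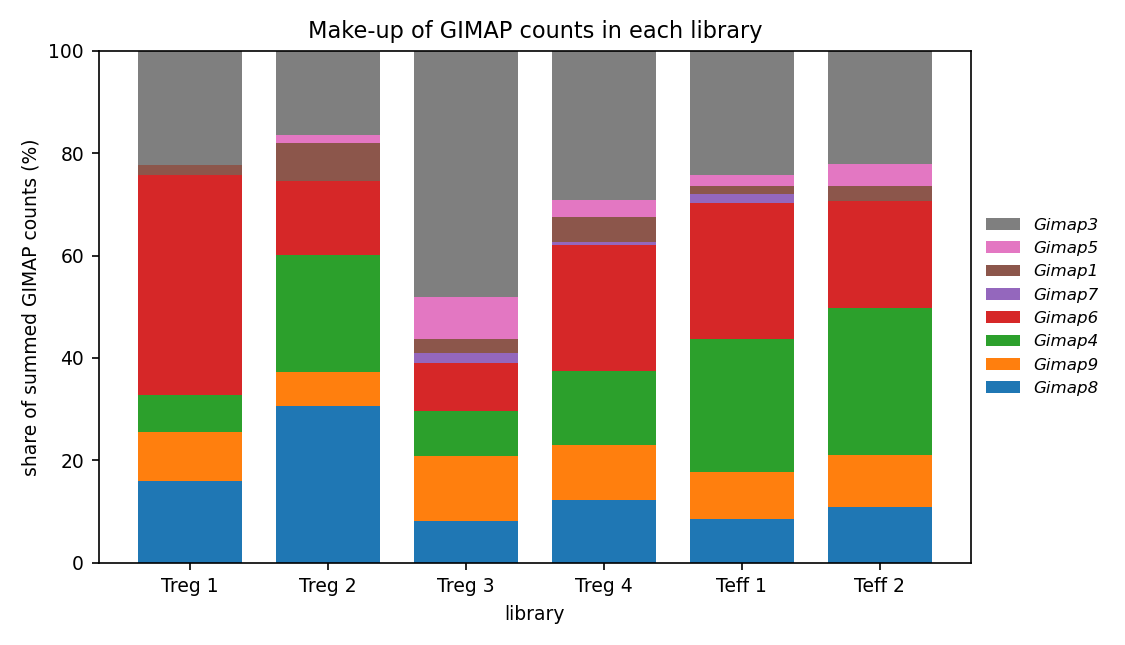
Percent of the summed GIMAP counts taken by each gene in each library (stacked bars, 4 Treg and 2 Teff libraries). Gimap4 takes 26.0% and 28.6% in Teffs and 7.23% to 22.7% in Tregs, and the largest share belongs to Gimap6, Gimap8, Gimap3 and Gimap3 in Treg 1 to Treg 4.

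Members did not follow one common pattern across the 6 libraries. Likeness was measured as the root mean square difference of log2(CPM + 1) values after centring each gene on its own mean. Gimap3 and Gimap9, at positions 8 and 2 of the cluster, were the closest pair at 0.26 on the log2 scale. Among the 11774 other tested genes, Gimap9 ranked 18 in likeness to Gimap3, and Gimap3 ranked 40 in likeness to Gimap9. The next pair was Gimap1 and Gimap8 at 0.54. Gimap5 and Gimap6 were the farthest apart at 2.40, and the paralogs Gimap3 and Gimap5 differed by 1.65. Both values rest largely on Treg 1, where Gimap5 had 0 counts. Its centred value there was -4.06, against 0.75 for Gimap6 and -0.48 for Gimap3. These values are descriptions over 6 libraries that share their depth and their detection of other genes.

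The family mean was lowest in Treg 1 (-1.06 on the centred log2 scale) and Treg 2 (-0.77) and highest in Teff 1 (0.85). Members with 0 counts weighed on the low values: Gimap5 (-4.06) and Gimap7 (-2.10) in Treg 1, and Gimap7 (-2.10) in Treg 2. By contrast, Gimap6 (0.75) and Gimap8 (0.02) lay above their own means in Treg 1, as did Gimap8 (0.50) and Gimap1 (0.49) in Treg 2. Treg 1 and Treg 2 were also the libraries with the fewest genes detected, 9602 and 9838, and the part of detection in this pattern was not tested. Of 5739 candidate genes outside the family, the 5 nearest to its mean were Sf3a3, Higd2a, Rnf44, Pqbp1 and Cpsf4, at differences of 0.14 to 0.24. The members themselves lay at 0.38 (Gimap9) to 1.49 (Gimap5) from this mean. The 5 genes were picked as the nearest of 5739, so their smaller differences say nothing about whether the members share a profile. Sf3a3, a splicing factor subunit, was at 30.8, 39.5, 75.4 and 115 CPM in Tregs and at 125 and 112 CPM in Teffs. With log2(CPM + 0.5), 3 of the 5 stayed among the nearest.

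Genes beside the cluster gave a local reference. Of the genes annotated within 500 kb, 16 were analysed and 12 passed the filter. None of the 12 was called by edgeR, 5 had positive and 7 negative log2 fold changes, and the median was -0.02. The most abundant was Tmem176b, a membrane protein gene of immune cells, at 41.3, 42.9, 415 and 108 CPM in Tregs and at 140 and 91.7 CPM in Teffs. Its partner Tmem176a was at 9.38, 0.320, 154 and 80.9 CPM in Tregs and at 75.6 and 45.5 CPM in Teffs. Both were highest in Treg 3. Tra2a, a splicing regulator, had means of 83.6 ± 53.5 CPM (Tregs) and 57.3 ± 4.22 CPM (Teffs), and Krba1 at 30.7 ± 17.2 and 31.0 ± 4.37 CPM. Lrrc61 and Gpnmb had mean levels of 12.2 CPM each over the 6 libraries.

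Genes of resting and recirculating T cells, the state in which GIMAP genes are best known, went both ways. Of 12 tested, 0 were called by edgeR, with 6 positive and 6 negative fold changes and a median of 0.11. Il7r, the receptor of the survival cytokine IL-7, was at 1443, 676, 1036 and 827 CPM in Tregs and at 405 and 482 CPM in Teffs. Its log2 fold change was 1.17 ± 0.40 (edgeR adjusted p = 0.721). Foxp1, a transcription factor of T cell quiescence, was at 480, 505, 309 and 322 CPM against 167 and 205 CPM. For both genes every Treg library lay above both Teff libraries, as for 5.51% of tested genes and the reverse of Gimap4. Foxo1, which drives Il7r and homing genes, overlapped between groups at 363 ± 228 and 258 ± 44.5 CPM. In the other direction 3 of the 12, Tcf7, Satb1 and S1pr1, named here after their values were seen, lay below both Teffs in every Treg library, beside 9.49% of all tested genes. Tcf7, a transcription factor of naive and memory T cells, was at 0.361, 0.160, 11.2 and 13.7 CPM in Tregs and at 452 and 468 CPM in Teffs. Its log2 fold change of -6.17 ± 1.39 was the lowest of the list and missed the threshold (edgeR adjusted p = 0.378). Satb1, a chromatin organiser of T cells, was at 0, 0.480, 7.01 and 15.7 CPM in Tregs and at 34.6 and 29.5 CPM in Teffs, and its log2 fold change was -2.46 ± 1.97 (edgeR adjusted p = 1). S1pr1, the receptor for exit from tissue, was at 116, 49.9, 45.8 and 50.1 CPM in Tregs and at 171 and 140 CPM in Teffs, and its log2 fold change was -1.25 ± 0.54 (edgeR adjusted p = 1).

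Genes whose products are named as GIMAP partners showed no common direction. Of 13 tested, 0 were called, 7 fold changes were positive and 6 negative, and the median was 0.03. Bcl2l1, which encodes the survival protein BCL-XL, was at 535, 493, 237 and 251 CPM in Tregs and at 226 and 121 CPM in Teffs. Its groups did not overlap, with every Treg library above both Teffs as for 5.51% of tested genes. Its log2 fold change was 1.12 ± 0.51 (edgeR adjusted p = 1). Ctnnb1, which encodes beta-catenin, was at 304 ± 152 and 259 ± 107 CPM, and Gsk3b, a kinase linked to GIMAP5, at 331 ± 96.9 and 199 ± 59.6 CPM. Bcl2, named after its values were seen, was at 0.361, 0.320, 154 and 0.143 CPM in the Treg libraries and at 185 and 91.1 CPM in Teffs. Its level in Treg 3 was thus inside the Teff range while the other Tregs were near 0.

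Lysosome and autophagy genes gave 0 calls among 10 tested, with 5 fold changes on each side and a median of -0.01. Ctsd, the lysosomal protease cathepsin D, was at 527, 622, 635 and 399 CPM in Tregs and at 976 and 1054 CPM in Teffs, and its log2 fold change was -0.90 ± 0.31 (edgeR adjusted p = 0.731). Lamp2 and Becn1 overlapped between groups, at 249 ± 117 against 121 ± 126 CPM and 197 ± 74.5 against 191 ± 6.10 CPM. Pan T cell genes gave 0 calls among 10 tested, with 2 positive and 8 negative fold changes and a median of -0.34. Ptprc, the CD45 gene, had means of 3290 ± 1410 CPM (Tregs) and 3811 ± 318 CPM (Teffs). Lck, the kinase of the T cell receptor, was at 1727 ± 474 and 2754 ± 373 CPM, and Cd2 at 1464 ± 569 and 984 ± 9.31 CPM.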

How the data were processed

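The authors deposited 1 table of raw whole-number counts per gene for 4 Treg and 2 Teff libraries, with their own comparison beside it: log2 fold change, log2 CPM, p-value and FDR, per the file headers. Per the labels' protocols, column-purified RNA was made into cDNA with an ultra-low-input SMARTer kit. The submitters' processing notes name TopHat2 2.0.12, HTSeq 0.6.1 and build mm10. The sources used here do not give the gene annotation or strand setting. Counter rows that name no gene took 88% to 90.2% of column totals and were left out.

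The fit across all genes used edgeR 4.0.16 under R 4.3.3 (filterByExpr with smallest count 10, TMM factors 0.913 to 1.05, glmQLFit and glmQLFTest on group, Benjamini-Hochberg over 11775 genes). Intervals of fold changes use the test's degrees of freedom. A scale of CPM per kb used merged exons of GENCODE M21 (GRCm38, the build named mm10). DESeq2 1.42.0, other scalings and filters, left-out libraries and a replicate block were alternatives. The members and lists were chosen with earlier results of these data known. Named genes were the members, the 3 most abundant (or called) genes of each list, up to 6 neighbours and the 5 nearest genes.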

Additional observations from a re-analysis of the deposited data

How the results depend on the processing

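The count of members called by edgeR or DESeq2 was 0 under every alternative run. The number of genes called over the whole table was 5, and it was 19 with no filter, 183 with DESeq2, 0 at an adjusted p under 0.01 and 0 to 2 with each library left out (2 without Teff 1, 0 without any other library). The replicate numbers shared by both groups give no pairing in the labels. The replicate block called 15 genes and 0 members. Deviations of same-numbered libraries correlated at -0.04 and 0.15, and those of Treg 3 and Teff 1, numbered differently, at 0.33. With 2 Teff libraries, the deviations of one mirror those of the other, so these values cannot decide on pairing. Gimap4 stayed negative under all alternatives (adjusted p of 0.117 to 1). Of 95 recomputed member fold changes, 86 kept their sign and 9 did not. At an unadjusted p under 0.05 edgeR and DESeq2 gave 1 member, Gimap4, except for 0 without Teff 1 and 2 with the replicate block (Gimap4 and Gimap3). Gimap8, close to 0, changed to 0.0169 with DESeq2 size factors and 0.0170 with the DESeq2 test, to 0.20 with the replicate block, and ran from -0.19 to 0.21 with libraries left out. Gimap1 ran from -0.11 (without Treg 4) to 0.53 and was -0.15 with the replicate block, and Gimap7 ran from -2.60 (without Treg 3) to 1.42 (without Teff 1). Leaving out libraries gave -0.60 (without Treg 3) to -0.02 (without Teff 1) for Gimap3, -1.39 (without Treg 3) to -0.14 (without Treg 1) for Gimap5, -1.11 (without Treg 1) to -0.29 (without Teff 1) for Gimap6 and -0.85 (without Treg 4) to -0.35 (without Treg 2) for Gimap9. The replicate block gave -1.26 for Gimap3 and for Gimap9, -0.90 for Gimap6, -2.08 for Gimap4, -5.16 for Gimap5 and -8.79 for Gimap7, where fitted values of the last pair rest on libraries with 0 counts and are no bound. Replicates 3 and 4 exist only as Tregs, so with the replicate block the fold changes compare Treg 1 and Treg 2 alone with both Teffs. The median of all genes moved by -0.71 with the replicate block, by 0.16 without Teff 1 and by -0.11 with upper-quartile scaling. Of these, upper-quartile scaling changed no member's sign. With libraries left out, the Treg minus Teff share differences ran from -0.47 to 10.1 points (Gimap3), -1.69 to 1.06 (Gimap5), -7.52 to 3.65 (Gimap6), -1.10 to 0.45 (Gimap7) and -0.69 to 1.26 (Gimap9), changing sign in each, while Gimap4 stayed at -17.1 to -11.9. In the order per length, 5 to 6 of 8 members kept their position in Tregs and 5 to 6 in Teffs. Of the 5 nearest genes, 3 were shared with a pseudocount of 0.5. A floor of 3 counts corresponds to 0.397 to 0.581 CPM, which limits Gimap5 in Treg 1 and Gimap7 in Treg 1 and Treg 2, the libraries with 0 counts of them.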

Other observations

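Promoter windows of the members, the 250 bases before each RefSeq start in GRCm38.p6, were searched on both strands for 4 short motifs. The 8 genes have 9 windows, since Gimap8 has 2 starts. The RUNX core TGTGGT was found in 3 windows (Gimap1, Gimap4 and Gimap7), against 14.05% of 32851 windows of all genes. The ETS core GGAAGT was in 2 (Gimap5 and Gimap6; 19.7% of all windows), the KLF core CACCCC in 3 (Gimap3, Gimap5 and Gimap8; 23.3%) and the forkhead motif GTAAACA in 1 (Gimap3; 3.17%). No match overlapped another. A match describes letters in this window and is neither a site nor a cause.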
